A study of Mus musculus with 25 samples.

Results

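The 33 genes described here are a listed set of fatty acid oxidation enzymes and targets of PPAR-alpha, and they were followed through mouse livers that lack Mcl-1 in hepatocytes. They were listed by name, with no threshold on a measured value, from 17016 genes with a symbol on the array, and all 33 were found there. The list was, however, chosen with earlier results of these data known. Each gene was read from its brightest probe. Liver burns fatty acids in mitochondria and peroxisomes: acyl groups are activated to coenzyme A esters, carried across the mitochondrial membranes as carnitine esters and shortened in repeated rounds that feed electrons to the respiratory chain. PPAR-alpha is a nuclear receptor that binds fatty acids and, paired with RXR, switches on many genes of these steps, above all in fasting. Mcl-1 is a member of the BCL-2 family that keeps cells from apoptosis.

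The study measured total RNA of whole liver homogenates from untreated mice on 25 single-colour arrays, 1 array per sample. The youngest mice, aged 2 months, comprised 2 wild-type, 3 hemizygous and 3 knockout animals. Knockout mice were also taken at 8 months (3 animals) and, beside 3 wild-type mice, at 12 months (4 animals). The 7 older knockout mice each gave a liver tumor and non-tumor liver. The series text calls the deletion hepatocyte-specific and the mice littermates, but the labels name neither the strain, the sex, the Cre driver nor the deleted part of the gene. Every sample carries an animal number, so that replicates are separate mice, and tumor and non-tumor samples are paired by that number. No hemizygous mouse is older than 2 months and no wild-type mouse is 8 months old. In homogenates, fewer hepatocytes and less RNA per hepatocyte cannot be told apart.

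Levels are the log2 of the processed signal after subtraction of its 75th percentile on that array, so that 1 unit is a doubling, and differences are in the same log2 units with the standard error (SE) of the limma fit. Levels of different genes come from different probes and are not compared. Between 60.2% and 84.9% of probes were well above background on an array. Each of the 33 genes was well above background on every array where it had a value, and no spot was saturated. Spots marked as outliers left Acsl1 without a value in non-tumor liver of animal 1109, Acadvl in non-tumor liver of 1109 and the tumor of 793, and Acaa1b in wild-type animal 1110. These samples are missing from the values below, and the pairs concerned dropped out of the paired fit for that gene.

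Mcl1, the check of the labels, stood at 4.02 and 4.50 in wild-type, 3.20 to 3.58 in hemizygous and 1.53 to 2.09 in knockout liver at 2 months. It differed by -2.44 (SE 0.37, adjusted p = 0.046) between knockout and wild-type at 2 months and by -1.66 (SE 0.31, adjusted p = 0.094) at 12 months. No knockout array, tumors included, reached a wild-type or hemizygous one. The groups were not balanced for sex: at 2 months Xist was well above background in 1 of 2 wild-type mice, in all 3 hemizygous mice and in 1 of 3 knockout mice. At 12 months it was so in 1 of 3 wild-type mice and, in non-tumor liver, 2 of 4 knockout mice. A clock gene differed between groups too: Dbp stood at 6.54 and 7.23 in wild-type and at -0.20, 3.80 and 4.76 in knockout liver at 2 months, and at 6.51, 5.14 and 0.34 in the 3 wild-type livers at 12 months. No slide held knockout and wild-type liver of the same age.

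Promoter sequence from RefSeq (build GRCm38.p6) was searched in 29 windows of 27 members, from 250 bases before to 50 after a start, because PPAR-alpha and RXR bind a direct repeat called DR1. The exact repeat was 2 copies of AGGTCA with 1 base of any kind between them. It occurred on either strand in none of the members' windows and in 0.0396% of the 32851 windows searched. The windows searched leave out a chromosome. A looser form, 2 copies of AGGNCA with 1 base between them, which includes the exact one, occurred in 0.381% of the windows searched and in 1 member's. That member is Fabp1, and the 250 bases before its start (chr6:71199629-71199878, plus strand) are shown with the match in capitals, its first base 67 bases before the start. The second sequence is the stretch of 272 bases between the starts of Hadha (minus strand) and Hadhb (plus strand), which encode both subunits of the mitochondrial trifunctional protein and are transcribed away from each other (chr5:30154981-30155252, plus strand). Its capitals mark the 228 bases that lie within 250 bases of both starts, shown because the levels of these neighbours can be set side by side below. Acaa2, Decr1, Cyp4a10, Cyp4a14, Angptl4 and Vnn1 were not searched.
Fabp1: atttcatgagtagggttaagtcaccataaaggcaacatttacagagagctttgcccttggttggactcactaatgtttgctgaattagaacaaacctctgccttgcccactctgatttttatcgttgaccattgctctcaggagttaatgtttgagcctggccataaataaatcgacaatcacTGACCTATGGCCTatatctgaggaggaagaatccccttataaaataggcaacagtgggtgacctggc
Hadha and Hadhb: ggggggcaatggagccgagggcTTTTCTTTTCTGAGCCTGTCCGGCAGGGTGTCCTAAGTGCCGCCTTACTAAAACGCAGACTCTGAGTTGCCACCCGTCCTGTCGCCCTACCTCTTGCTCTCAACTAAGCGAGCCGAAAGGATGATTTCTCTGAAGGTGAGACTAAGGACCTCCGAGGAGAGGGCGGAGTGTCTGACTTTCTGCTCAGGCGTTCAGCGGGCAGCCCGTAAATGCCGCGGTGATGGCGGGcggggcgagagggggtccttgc

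Knockout liver had lower levels of most of the 33 genes than wild-type liver at both ages, but no single gene passed the adjusted threshold of 0.05. Because the list was chosen with earlier results of these data known, its counts beside the shares of all features are description and no independent test. At 2 months 31 differences were below 0 (51% of 27027 features) and 2 above (49%), with a median of -0.62 against -0.01 over all features. None passed the adjusted threshold, as against 0.0259% of features. At an unadjusted p below 0.05 there were 8 lower members (background 4.34%) and 1 higher (4.54%). All 3 knockout arrays lay below both wild-type arrays for 17 members (19.3% of features) and above both for 2 (17.5%). At 12 months non-tumor knockout liver had 31 members below 0 (55.1% of 27035 features) and 2 above (44.9%), with a median of -0.79 against -0.09. Again none passed (0.0148% of features did), while 17 were lower at an unadjusted p below 0.05 (8.63% of features) and none higher (8.62%). The 4 knockout arrays lay below all 3 wild-type arrays for 16 members (4.78%) and above them for none (5.44%).

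These age groups share no array, and 30 members were below 0 at both, while 9 lay apart and lower at both: Ppara, Creb3l3, Acadvl, Acadm, Hadhb, Eci1, Decr1, Pex11a and Angptl4. The shares of all features for these joint counts were not computed, so the counts have no background to be judged by. The lowest adjusted p of a member was 0.257 at 2 months and 0.100 at 12 months. The median at 2 months was -0.28 with normexp background correction and quantile normalisation, with 27 of 33 members below 0. The median at 12 months was -0.43 when arrays were centred on hepatocyte markers, with 27 below 0. The level of the clock gene Arntl was -2.41 and -2.72 in wild-type and 2.58, 2.25 and 0.44 in knockout liver at 2 months, so that as a covariate it is nearly aligned with genotype. With it the difference at 2 months was -0.53 for Ppara, -0.57 for Cpt1a, -0.07 for Creb3l3, -0.26 for Pex11a, -0.29 for Vnn1 and 0.51 for Pdk4, each much smaller than the value given below.

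**Figure D1:**
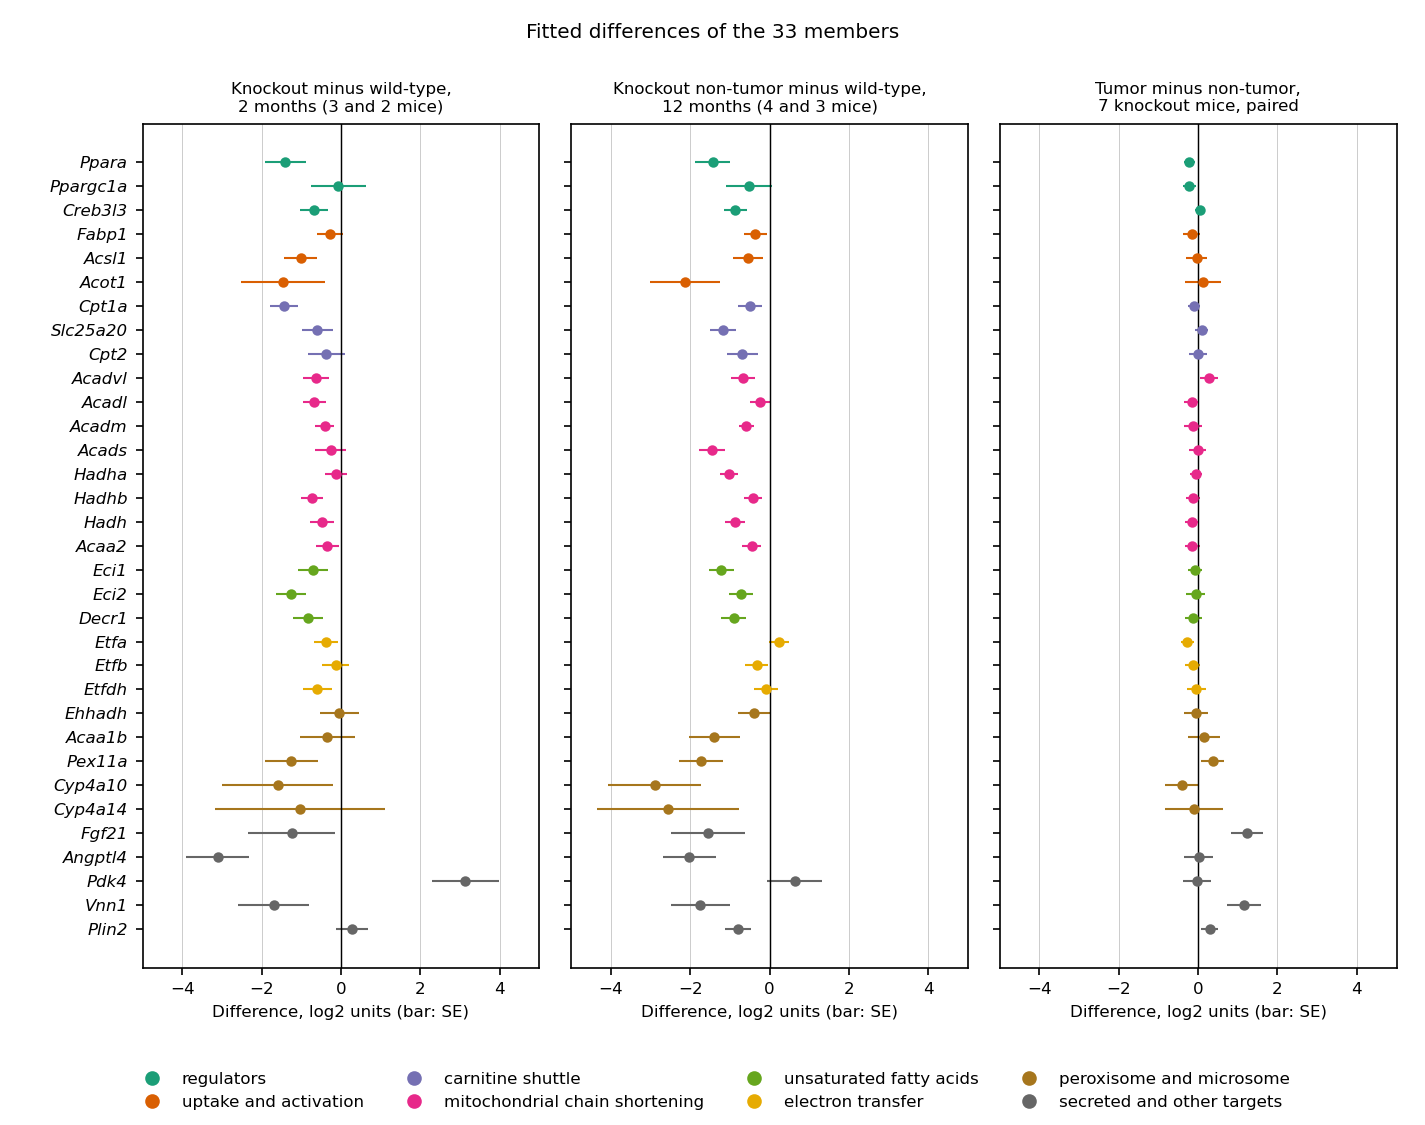
Difference of each of the 33 genes (points, log2 units; bars, SE) for the genotype at 2 months (knockout minus wild-type), for the genotype at 12 months (non-tumor liver) and in tumor against non-tumor liver of 7 knockout mice; colours give the role of the gene. At each age 31 of 33 points lie below 0 in the genotype comparisons, and the points of the tumor comparison gather around 0 except for Fgf21 (1.24) and Vnn1 (1.15).

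One value per array, the median over the 33 genes of the level minus the gene's mean over all 25 arrays, shows how evenly the set moved in single mice. It was 0.35 and 0.57 in wild-type and 0.29 to 0.39 in hemizygous liver at 2 months, and 0.49 to 0.55 in wild-type liver at 12 months. Knockout livers at 2 months had -0.36, -0.06 and -0.03. Older knockout livers were far more spread out, from -0.73 to 0.04 in non-tumor liver at 12 months and from -0.49 to 0.29 at 8 months. Thus every knockout array from mice of 2 or 12 months lay below every wild-type and hemizygous array, whereas both samples of animal 934 at 8 months, at 0.29 in non-tumor liver and 0.36 in the tumor, came up to the hemizygous range. The members tended to be low together in the same mouse: animal 702 had the lowest level of its group for 23 of 31 members (74.2%, against 34.1% of features) in non-tumor liver, animal 1287 for 24 of 33 (72.7% against 38.3%) at 8 months and animal 137 for 20 of 33 (60.6% against 40.6%) at 2 months.

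**Figure D2:**
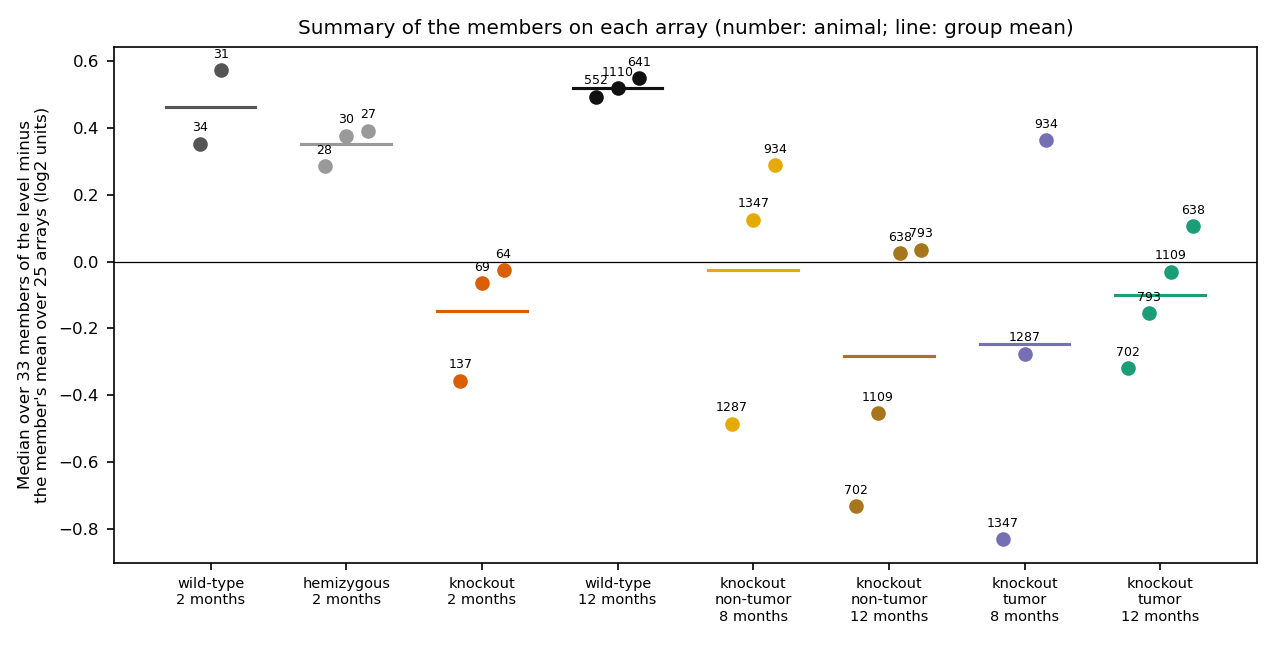
Median over the 33 genes of the level minus the gene's mean over 25 arrays (y axis, log2 units) for each array, by group (x axis); numbers are animals and lines are group means. Wild-type and hemizygous arrays sit between 0.29 and 0.57, and knockout arrays between -0.83 and 0.36.

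Of the 3 regulators, Ppara and Creb3l3 had lower levels in knockout liver at both ages, and Ppargc1a did not separate the groups. The Creb3l3 difference at 2 months was -0.92 to -0.07 over the alternatives, with -0.07 when the level of Arntl was a covariate. Ppara, the receptor itself, stood at 5.08 and 5.21 in wild-type against 3.73, 4.22 and 3.26 in knockout liver at 2 months, a difference of -1.41 (SE 0.52, 2.65-fold lower). Hemizygous livers had 5.24, 4.87 and 5.40, which is as high as wild-type. At 12 months it was 4.92, 5.20 and 4.66 in wild-type and 3.01, 4.28, 2.76 and 3.94 in non-tumor knockout liver (-1.43, SE 0.43, adjusted p = 0.137). The difference was of the same size at both ages, and the test of a change with age gave -0.03 (SE 0.68). Creb3l3 encodes CREBH, a membrane-bound transcription factor of hepatocytes that acts with PPAR-alpha in fasting. Its levels were 5.85 and 6.35 in wild-type and 5.56, 5.32 and 5.40 in knockout liver at 2 months (-0.67, SE 0.35). At 12 months they were 5.57, 5.99 and 6.21 against 4.74, 5.34, 5.02 and 5.15 (-0.86, SE 0.30). The groups lay apart at both ages, narrowly so at 12 months. Ppargc1a, a coactivator of PPAR-alpha, was at 0.10, 0.86 and 2.83 in the knockout livers of 2 months and at 1.34 and 1.32 in wild-type, with overlap.

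For uptake and activation, the fatty acid binding protein Fabp1 differed least and Acsl1 and Acot1 were lower with wide errors. Fabp1, whose promoter holds the match printed above, differed by -0.27 (SE 0.34) at 2 and by -0.35 (SE 0.28) at 12 months, with overlapping groups. Acsl1, which activates long-chain fatty acids to their coenzyme A esters, stood at 7.31 and 7.58 in wild-type and at 6.96, 6.41 and 5.91 in knockout liver at 2 months (-1.02, SE 0.42). At 12 months its probe gave -0.54 (SE 0.38), but the other probes of the gene gave -1.50 and -1.33, so its size at that age depends on the probe. Acot1, a cytosolic thioesterase that hydrolyses these esters and a strong target of PPAR-alpha, differed by -1.46 (SE 1.05) and -2.12 (SE 0.88). One animal carried much of the spread of Acot1: non-tumor liver of animal 702 was at -0.36 and the other 3 of its group between 2.78 and 4.12.

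All 3 genes of the carnitine shuttle were below 0 at both ages (51% of features at 2 months and 55.1% at 12 months). Cpt1a, the outer-membrane carnitine palmitoyltransferase that controls entry into mitochondria, had levels of 6.07 and 5.88 in wild-type and 5.89, 5.53 and 5.79 in hemizygous liver. All 3 knockout livers of 2 months were lower, at 4.33, 4.57 and 4.73 (against wild-type -1.43, SE 0.36, adjusted p = 0.257, the lowest of any member; -1.53 to -0.57 over the alternatives). Wild-type liver at 12 months was itself at 5.29, 5.41 and 4.86, and non-tumor knockout liver at 4.56, 3.96, 5.32 and 4.93, so that the groups overlapped (-0.49, SE 0.30). The other Cpt1a probe gave -1.35 at 2 months and -1.42 at 12 months, which leaves the size at 12 months uncertain. Slc25a20, the carrier that exchanges acylcarnitine for carnitine across the inner membrane, was at 3.37, 3.45 and 3.60 in wild-type and 2.18, 2.80, 1.61 and 2.57 in non-tumor knockout liver at 12 months (-1.18, SE 0.33). At 2 months its levels of 2.41, 2.85 and 2.63 in knockout liver overlapped the wild-type ones of 3.64 and 2.82 (-0.60, SE 0.39) and lay below the hemizygous ones of 3.14, 3.36 and 3.20. Cpt2, which releases the acyl group inside, stood at 6.0 and 6.13 in wild-type and 5.59, 5.61 and 5.90 in knockout liver at 2 months (-0.37, SE 0.47). The groups did not overlap there but the error exceeded the difference.

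All 8 members of mitochondrial chain shortening were below 0 at both ages (51% of features at 2 months and 55.1% at 12 months). Groups lay apart and lower for 7 of them at 12 months (4.78% of features) and for 4 at 2 months (19.3%). The acyl-CoA dehydrogenases take the first step for chains of falling length. Acadvl, for very long chains, stood at 7.04 and 7.08 in wild-type and 6.44, 6.30 and 6.57 in knockout liver at 2 months (-0.62, SE 0.33), and at 7.34, 7.12 and 7.32 against 6.59, 6.13 and 7.04 at 12 months (-0.67, SE 0.30). Acadm, for medium chains, was at 6.83 and 6.97 against 6.20, 6.59 and 6.67 at 2 months (-0.41, SE 0.23). In mice of 12 months it was at 7.03, 6.88 and 6.81 against 6.35, 6.32, 6.15 and 6.48 (-0.58, SE 0.20), so that every knockout array was lower. Acadl, for long chains, lay barely apart at 12 months, at 3.20, 3.44 and 3.19 against 3.17, 3.09, 2.68 and 3.18 (-0.24, SE 0.25). Its sign was positive (0.12) when arrays were centred on hepatocyte markers. Acads, for short chains, differed most of the 4 at 12 months: wild-type livers had 3.93, 3.93 and 4.43 and knockout livers 2.29, 3.32, 2.20 and 2.79 (-1.45, SE 0.33, 2.73-fold lower, adjusted p = 0.102). At 2 months Acads groups overlapped (-0.25, SE 0.39).

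Hadha and Hadhb, the neighbours whose intergenic sequence is printed above, had their larger difference at different ages, Hadha at 12 and Hadhb at 2 months. These genes were not tested against each other. Hadha, the alpha subunit of the trifunctional protein, was at 2.39 and 2.07 in wild-type and 1.94, 2.24 and 2.16 in knockout liver at 2 months (-0.12, SE 0.28). At 12 months wild-type livers had 2.37, 2.85 and 2.84 and non-tumor knockout livers 1.74, 2.03, 1.49 and 1.38 (-1.03, SE 0.23, adjusted p = 0.100). Hadhb, the beta subunit, was at 5.86 and 5.57 against 4.63, 5.05 and 5.29 at 2 months (-0.73, SE 0.27) and at 5.28, 5.21 and 5.39 against 4.84, 4.85, 4.72 and 5.10 at 12 months (-0.41, SE 0.23). The change of the genotype difference with age was -0.91 (SE 0.36) for Hadha and 0.31 (SE 0.36) for Hadhb, and neither passed the adjusted threshold. Hadh, which oxidises the shorter hydroxyacyl chains, stood at 5.86, 5.84 and 5.88 in wild-type and 4.79, 5.54, 4.56 and 5.11 in non-tumor knockout liver at 12 months (-0.86, SE 0.25). Acaa2, the thiolase of the last step, was at 8.79 and 9.01 against 8.56, 8.71 and 8.39 at 2 months (-0.34, SE 0.29).

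The 3 enzymes that prepare unsaturated fatty acids for oxidation were below 0 at both ages (51% of features at 2 months and 55.1% at 12 months). Eci1, a mitochondrial enoyl-CoA isomerase, was at 6.09 and 6.16 in wild-type and 5.23, 5.72 and 5.29 in knockout liver at 2 months (-0.71, SE 0.38), and at 6.14, 6.44 and 6.22 against 4.85, 5.72, 4.43 and 5.22 at 12 months (-1.21, SE 0.32). Eci2, an isomerase found in peroxisomes and mitochondria, stood at 7.40 and 7.66 against 5.99, 6.28 and 6.54 at 2 months (-1.26, SE 0.37), and hemizygous livers at 6.98, 6.93 and 7.51. At 12 months the groups of Eci2 overlapped (-0.72, SE 0.31). Decr1, the dienoyl-CoA reductase, was at 1.31 and 0.92 against 0.36, 0.17 and 0.30 at 2 months (-0.84, SE 0.38) and at 0.46, 1.15 and 0.73 against 0.24, 0.19, -0.72 and -0.21 at 12 months (-0.90, SE 0.32).

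The electron transfer genes had the smallest median difference of the 8 roles at both ages. Etfa and Etfb, the subunits of the flavoprotein that collects electrons from the dehydrogenases, and Etfdh, the oxidoreductase that passes them on, stood at a median of -0.38 at 2 months and -0.08 at 12 months. Etfa was at 6.08 and 6.04 in wild-type and 5.53, 5.87 and 5.65 in knockout liver at 2 months (-0.38, SE 0.31), and it stood above 0 at 12 months (0.24, SE 0.26). Etfdh was at 5.65 and 5.81 against 5.33, 4.95 and 5.14 at 2 months (-0.59, SE 0.36). At 12 months the Etfdh groups overlapped, at -0.08 (SE 0.30) with its brightest probe and -0.58 with the other. Etfb overlapped at both ages.

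**Figure D3:**
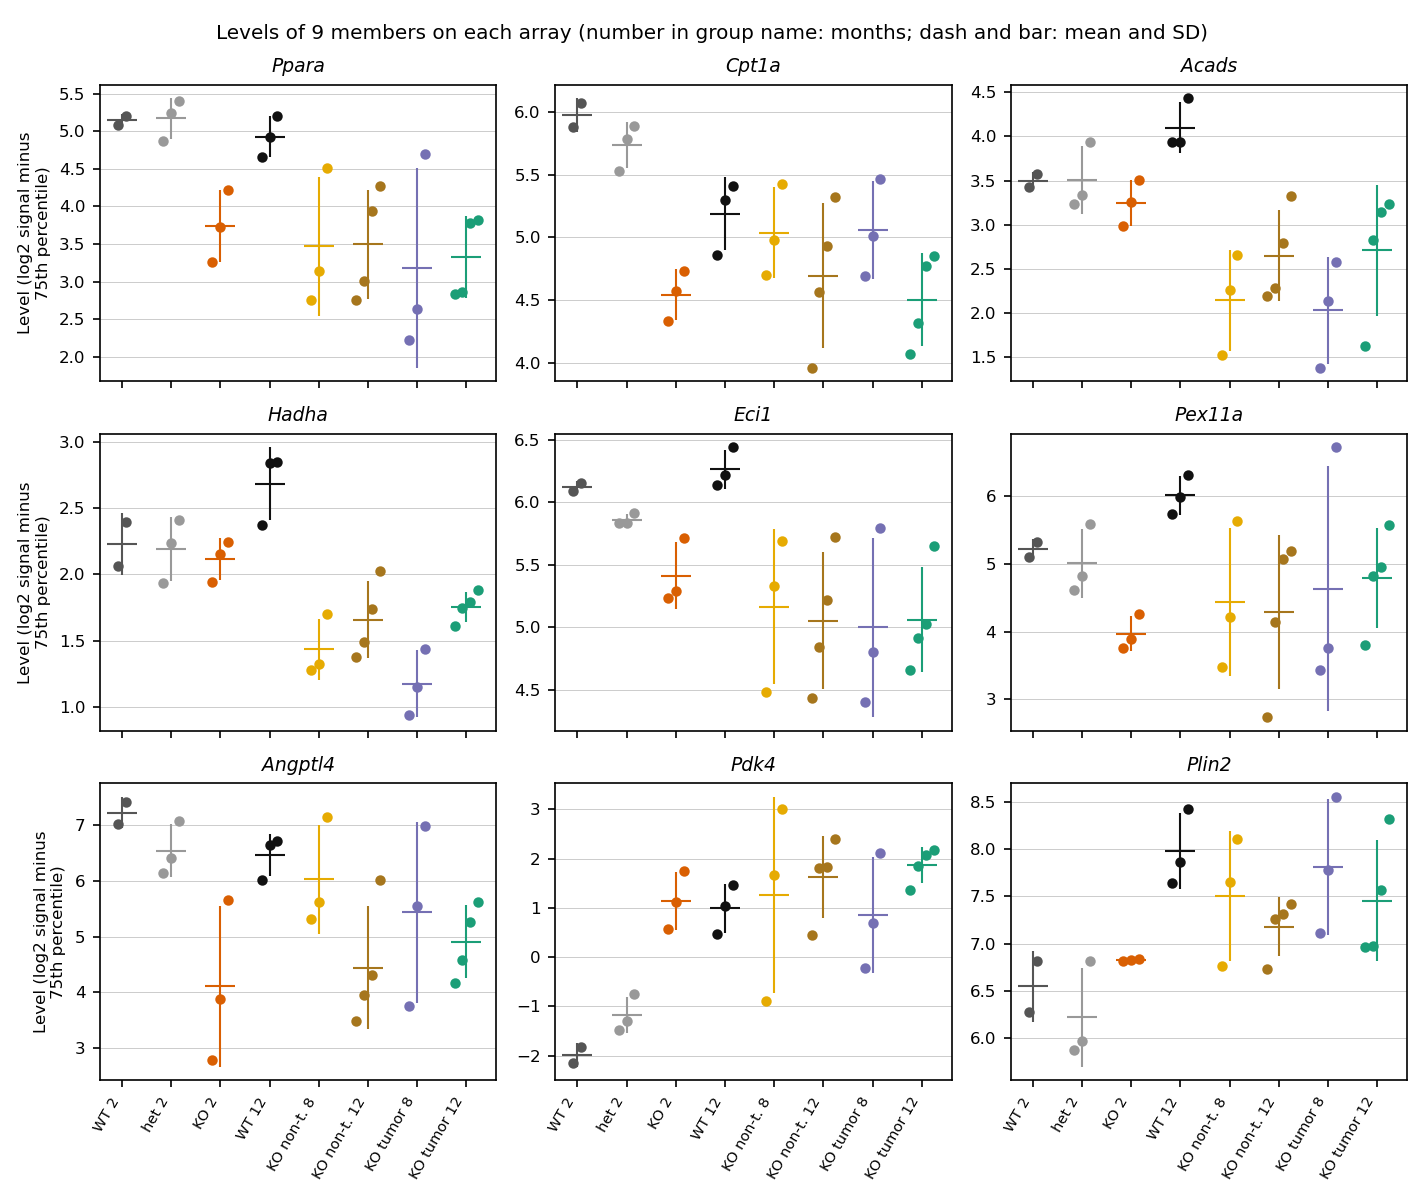
Levels (log2 signal minus the array's 75th percentile; y axes differ between genes) of 9 of the genes on each array, by group and age in months; dashes and bars are mean and SD. Ppara, Eci1 and Angptl4 are lower on every knockout than on every wild-type array at both ages, and Pdk4 is below 0 in wild-type and hemizygous liver of 2 months and in both samples of animal 934.

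Among the peroxisomal and microsomal members Pex11a lay apart at both ages, while the cytochromes Cyp4a10 and Cyp4a14 had large differences and larger spreads. Pex11a, a membrane protein of peroxisome division, stood at 5.33 and 5.11 in wild-type and 3.89, 3.76 and 4.25 in knockout liver at 2 months (-1.25, SE 0.67). In mice of 12 months it was at 5.98, 6.32 and 5.73 against 4.14, 5.08, 2.73 and 5.19 (-1.73, SE 0.56, 3.31-fold lower). Knockout arrays were lower at both ages and widely spread at 12 months. Acaa1b, the peroxisomal thiolase, was at 8.94 and 8.12 in the wild-type livers with a value and at 7.58, 8.04, 5.57 and 7.39 in non-tumor knockout liver at 12 months (-1.39, SE 0.65). Ehhadh, the bifunctional enzyme of peroxisomes, overlapped at both ages (-0.04, SE 0.49, and -0.39, SE 0.41). Cyp4a10 and Cyp4a14 start the omega-oxidation of fatty acids and respond strongly to PPAR-alpha agonists. Cyp4a10 differed by -2.89 (SE 1.17) at 12 months, with 4.96 in knockout animal 638 inside the wild-type range of 3.87 to 5.26 and -1.87 in animal 702. At 2 months Cyp4a14 was at 7.29 and 3.08 in wild-type and 0.33, 4.84 and 7.29 in knockout liver, so no difference was detectable (-1.03, SE 2.14).

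The secreted and other targets included the widest differences of any member at 2 months, in opposite directions. Angptl4, a secreted inhibitor of lipoprotein lipase, was at 7.02 and 7.42 in wild-type, 6.14, 6.41 and 7.07 in hemizygous and 5.66, 2.79 and 3.89 in knockout liver (against wild-type -3.11, SE 0.80, 8.63-fold lower, adjusted p = 0.275). At 12 months it was at 6.02, 6.72 and 6.63 against 3.49, 4.31, 3.94 and 6.01 (-2.02, SE 0.67), with animal 793 just below the lowest wild-type value. Pdk4, the kinase that shuts the pyruvate dehydrogenase complex when fat is burned, went the other way at 2 months. It was at -1.82 and -2.16 in wild-type, -1.47, -1.30 and -0.76 in hemizygous and 1.74, 1.12 and 0.57 in knockout liver (3.13, SE 0.84, 8.78-fold higher, adjusted p = 0.283). Wild-type liver at 12 months was at 1.47, 1.04 and 0.47, inside the range of the knockout livers, and the genotype difference there was 0.63 (SE 0.70). The genotype difference of Pdk4 thus changed by -2.50 (SE 1.09) between the ages, which did not pass the adjusted threshold (adjusted p = 0.50).

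Vnn1, a pantetheinase of hepatocytes, was at 2.32 and 1.30 in wild-type and 0.47, 0.30 and -0.42 in knockout liver at 2 months (-1.69, SE 0.90). Plin2, which coats lipid droplets, was at 6.28 and 6.82 against 6.84, 6.82 and 6.83 at 2 months (0.28, SE 0.40), and its groups barely lay apart. At 12 months its direction was the opposite, with 7.86, 8.42 and 7.65 in wild-type against 7.26, 6.73, 7.32 and 7.42 in non-tumor knockout liver (-0.79, SE 0.34). Fgf21, a liver hormone released in fasting, overlapped at both ages (-1.24, SE 1.1, and -1.55, SE 0.92).

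Against hemizygous littermates the picture at 2 months was similar, though these comparisons share the knockout arrays. There 29 members were below 0 (45% of 27030 features) and 4 above (55%), with a median of -0.43 against 0.06, and none passed the adjusted threshold (0.0518% of features). Groups lay apart and lower for 16 members (9.57%) and higher for 1 (16%), and at an unadjusted p below 0.05 there were 8 lower (4.3%) and 1 higher (4.04%). Ppara differed by -1.43 (SE 0.46), Cpt1a by -1.19 (SE 0.32), Angptl4 by -2.43 (SE 0.72), Vnn1 by -1.98 (SE 0.80) and Pdk4 by 2.32 (SE 0.75). On the only slide with both genotypes, knockout animal 137 had a median difference of -0.62 from 2 hemizygous livers, with 29 of 33 members below 0. This rests on 1 knockout array, the one with the lowest per-array median of its group (-0.36). The difference over all features on that slide was not computed. Creb3l3 lay apart in this comparison (-0.43, SE 0.32), but its sign was positive (0.10) with the level of the clock gene Arntl as a covariate.

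Hemizygous and wild-type liver were close. Their median difference was -0.13 against -0.05 over all features, with 21 members below 0 (55.7% of 27026 features) and 12 above (44.3%). No member passed the adjusted threshold (0% of features did) or an unadjusted p below 0.05 (0.862% of features lower and 0.374% higher). Acsl1, Cpt2, Acadvl and Eci1 lay apart and lower (9.94% of features) and Pdk4 apart and higher (8.54%). On the slide that held both genotypes the median was -0.01.

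Between wild-type livers of 2 and 12 months the set as a whole was near 0. Pdk4 and Plin2 were higher at 12 months at an unadjusted p below 0.05 only. Wild-type arrays of 2 months were scanned on day 1, and those of animals 552 and 1110 of 12 months on day 2. Age and scan day are thus partly confounded here. The median from 2 to 12 months was -0.02, with 17 members below 0 (51.5% of 27028 features) and 16 above (48.5%). No member passed the adjusted threshold (0.0407% of features), and at an unadjusted p below 0.05 there were 2 higher (4.86%) and 1 lower (5.75%). Those were Pdk4 (2.98, SE 0.84), Plin2 (1.43, SE 0.40) and Cpt1a (-0.79, SE 0.36). The groups lay apart for 7 members upward (15.5%) and 8 downward (12.4%). Among knockout livers, non-tumor liver at 8 months differed from that at 2 months by a median of 0.09, with 12 members below 0 (50.8%) and 21 above (49.2%). At 12 months the median was -0.16, with 21 below (53.9%) and 12 above (46.1%). No member passed the adjusted threshold (0% and 0.0074% of features). At 8 months 2 members were lower (7.53%) and 2 higher (8.54%) at an unadjusted p below 0.05, and at 12 months none was lower (10.3%) or higher (7.11%). Acads stood at 1.53, 2.26 and 2.65 at 8 months against 2.98, 3.50 and 3.26 at 2 months (-1.1, SE 0.35), and Hadha at 1.70, 1.32 and 1.28 against 1.94, 2.24 and 2.16 (-0.68, SE 0.25). The higher members were Acadl, at 3.76, 3.34 and 3.39 against 2.44, 2.73 and 3.34 (0.65, SE 0.27), and Angptl4, at 5.63, 5.32 and 7.14 against 5.66, 2.79 and 3.89 (1.92, SE 0.72), both with overlapping groups. The median at 8 months was 0.38 without animal 1287.

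The genotype difference itself was compared between the ages, to test whether it changes from 2 to 12 months. The knockout livers of 12 months came from tumor-bearing mice. Wild-type arrays 552 and 1110 of that age were scanned on day 2, the knockout non-tumor arrays on day 1. Age cannot be told apart from tumor bearing here, and scan day is partly confounded with it. No member passed the adjusted threshold (0% of 27027 features did), 25 members were below 0 (52.7%) and 8 above, and the median was -0.19. At an unadjusted p below 0.05 there were 3 lower members (4.83%), Acads (-1.20, SE 0.51), Hadha (-0.91, SE 0.36) and Pdk4 (-2.50, SE 1.09), and none higher (4.77%). The median was 0.18 when arrays were centred on hepatocyte markers.

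Tumors differed little from the non-tumor liver of the same animal in these genes. The paired fit gave a median of -0.05 against -0.02 over 24584 features, with 23 members below 0 (53.5%) and 10 above. No member passed the adjusted threshold (0% of features did), and no member had the same sign in all 7 animals (0.618% of features were higher and 0.85% lower in all 7). At an unadjusted p below 0.05 there were 2 higher members (2.34%) and none lower (1.7%). They were Fgf21 and Vnn1, whose tumor minus non-tumor values were positive in 6 of 7 animals each. Fgf21 differed by 1.07, 1.96 and 1.35 in the animals of 8 months and by 2.93, 0.82, 1.58 and -1.05 in those of 12 months (mean 1.24, SE 0.40). Vnn1 differed by -0.28, 2.12 and 0.37 and by 3.42, 0.14, 1.72 and 0.57 (mean 1.15, SE 0.43). Ppara stood at -0.22 (SE 0.15), Cpt1a at -0.10 (SE 0.15) and Hadha at -0.05 (SE 0.15) in tumors.

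The tumor comparison was not uniform across animals. In animal 1347 the tumor was below its non-tumor liver for 29 of 33 members (60.5% of features), with a median of -0.95 (all features -0.21). In animal 793 it was so for 20 of 32 (51.4%) with -0.29 (all features -0.02), and in animal 702 for 7 of 33 (40.5%) with 0.53 (all features 0.12). The other 4 had medians between 0.06 and 0.16, and between -0.11 and 0.15 over all features. In animal 638 the members (0.14) were no higher than all features (0.15). Over all features, the tumors of 1347 and 793 correlated most with non-tumor liver of animal 1287, not with their own. In animal 1347 the tumor minus non-tumor value was -4.15 for Cyp4a14, -2.96 for Cyp4a10, -2.49 for Acot1 and -2.32 for Pdk4. In animal 702 it was 3.44 for Cyp4a14, 1.84 for Acot1, 1.78 for Acaa1b and 1.68 for Angptl4. Non-tumor liver of animal 702 was the lowest of its group for Cyp4a14, Acot1 and Acaa1b, but not for Angptl4. The arrays of animal 1347 were on separate slides and scanned on separate days, those of the other 6 pairs on 1 slide each. Without this animal the median was 0.10 and 24 of 33 members were above 0. The share of all features above 0 in that fit was not computed.

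The tumor effect at 12 months minus that at 8 months had a median of 0.41, with 28 members above 0 (58.6% of features) and none past the adjusted threshold (0% of features). At an unadjusted p below 0.05 there were 2 higher members (5.41%), Ehhadh (1.23, SE 0.49) and Cyp4a14 (2.80, SE 1.18), and none lower (0.651%), and Slc25a20, Hadh and Ehhadh lay apart and higher (4.73%). Slc25a20 tumor minus non-tumor values were -0.13, -0.10 and -0.38 at 8 months and 0.87, 0.33, -0.03 and 0.06 at 12 months. For Hadh they were -1.06, -0.07 and -0.14 against -0.01, 0.08, 0.01 and 0.06. For Ehhadh they were -1.82, -0.35 and -0.12 against 1.13, 0.09, 0.42 and 0.24. Without animal 1347 the median of this age difference was 0.07.

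**Figure D4:**
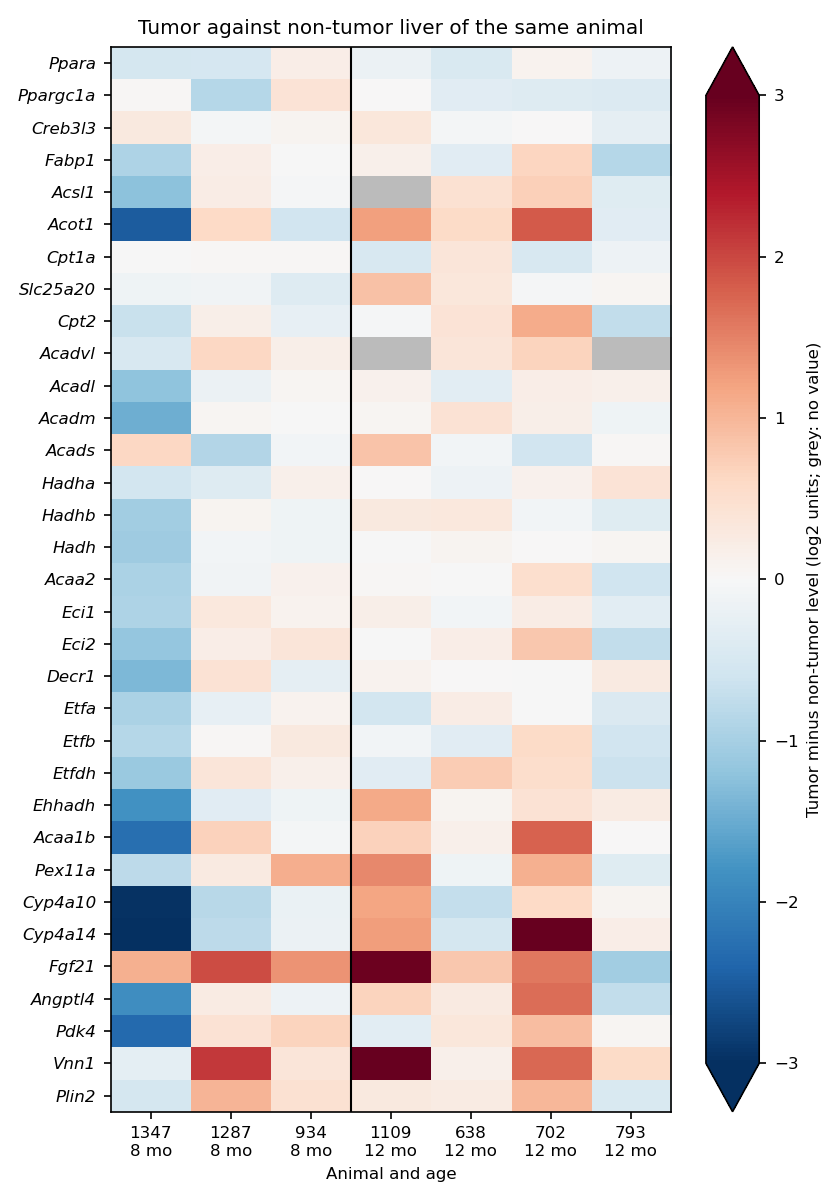
Tumor minus non-tumor level (colour, log2 units) of each gene (rows) in each of 7 knockout mice (columns, with age); grey marks a missing value, and values beyond 3 take the end colour. The column of animal 1347 is blue for 29 of 33 genes, and Fgf21 and Vnn1 are red in 6 of 7 animals each.

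Other genes of the same pathways, from lists that hold none of the 33, were lower in knockout liver in most lists. None of those genes passed the adjusted threshold at 2 or 12 months or in tumors. These lists too were chosen with earlier results of these data known, so they are no separate support. Over all features, 51% were below 0 at 2 months and 55.1% at 12 months. Of 21 genes of peroxisomal oxidation, 18 were below 0 at 2 months (median -0.47) and 20 at 12 months (-0.51). Decr2, the peroxisomal dienoyl-CoA reductase, differed by -0.98 (SE 0.34) and -1.07 (SE 0.28), and Ech1, which isomerises dienoyl chains, by -1.60 (SE 0.33) at 12 months. Of 26 other PPAR-alpha targets tested, 23 were below 0 at each age, with a median of -0.88 at both. They include Slc25a47, a liver mitochondrial carrier (-2.13, SE 0.57, at 2 months), Cyp8b1, the sterol hydroxylase that makes cholic acid (-3.92, SE 0.92, at 12 months), and Retsat (-2.24, SE 0.59, at 12 months). Gdf15, a stress-induced hormone, stood at 2.72 (SE 0.80) at 2 months.

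Lpin1, which acts as a coactivator of PPAR-alpha besides its enzyme role, differed by -3.29 (SE 0.72, adjusted p = 0.202) at 2 months. The list of partners and coregulators was otherwise mixed, with 13 of 18 below 0 at 2 months (median -0.25) and 9 of 18 at 12 months (-0.06). Its member Rxra, the partner of PPAR-alpha, stood at -0.60 (SE 0.32) at 2 months. Of 19 further mitochondrial oxidation genes tested, 16 and 18 were below 0 (medians -0.28 and -0.31), while Acss1, a mitochondrial acetyl-CoA synthetase, went the other way (1.44, SE 0.63, and 2.11, SE 0.53). Uptake and activation genes had medians of -0.06 and -0.26, with 9 and 10 of 15 below 0, among them the fatty acid transporters Slc27a2 (-0.96, SE 0.27, at 2 months) and Slc27a4 (-1.45, SE 0.32, at 12 months). Genes of lipid droplets and lipolysis had medians of -0.22 and -0.80, with 8 and 11 of 16 below 0. Pnpla2, the triglyceride lipase, stood at -1.12 (SE 0.32) and Pnpla3 at 3.64 (SE 1.27) at 2 months, and Cideb at -1.51 (SE 0.38) at 12 months.

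In tumors the lipid droplet list had a median of 0.23, with 11 of 16 genes above 0 (46.5% of features), including Cidea (1.91, SE 0.53) and Hilpda (0.67, SE 0.25). The peroxisomal list stood at -0.08 and the other PPAR-alpha targets at 0.11, with 14 of 26 above 0. Of those targets Cyp4f15 (-0.68, SE 0.16) and Apoa5 (-0.46, SE 0.17) were lower in all 7 tumors, as were 0.85% of features, and Cyp2j6 (0.43, SE 0.18) was higher in all 7, as were 0.618%. Partners and coregulators had 16 of 18 below 0 (53.5% of features) with a median of -0.17.

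Markers of some cell types and of tissue state also differed between knockout and wild-type liver, and the medians of endothelial and muscle markers stayed near 0. Over all features, 49% were above 0 at 2 months and 44.9% at 12 months. The 16 hepatocyte markers measured had a median difference of -0.00 at 2 months, with 8 below 0, -0.35 at 12 months with 14 below 0 and -0.23 in tumors with 15 below 0. The summed level of hepatocyte markers at 2 months was 12.56 and 12.77 in wild-type mice, and 12.62 to 12.82 in knockout mice. At 12 months it was 12.40 to 12.88 and, in non-tumor knockout liver, 11.92 to 12.42. All 17 macrophage markers were above 0 at both ages (medians 1.28 and 1.35), with summed levels of 5.86 to 5.99 against 7.16 to 7.23 at 2 months and 4.96 to 6.96 against 7.13 to 8.44 at 12 months. All 18 mitosis genes were above 0 as well (2.48 and 2.64). Matrix and stellate markers were above 0 in 11 of 12 (1.48) and 8 of 12 (0.68), neutrophil markers in 8 of 9 (2.21) and 6 of 9 (0.40), and cholangiocyte and progenitor markers in 6 of 8 at each age (0.82 and 0.77). The medians at 2 and 12 months were 0.06 and 0.14 for endothelial, 0.25 and -0.99 for adipocyte and -0.11 and -0.10 for muscle markers. Some of these lists lay partly near background. At 2 months wild-type livers had 2 to 4 of 10 neutrophil markers well above background and knockout livers 7 to 9. Wild-type livers of that age had 2 of 6 adipocyte and 1 to 2 of 5 muscle markers well above it. The part of these markers in the differences of the 33 genes was not tested.

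Genes of fasting and glucocorticoid response were below 0 in 9 of 9 at 2 months (median -1.02) and 8 of 9 at 12 months (-0.36), and clock genes in 11 of 15 at each age (-1.29 and -0.99). Female-biased liver genes stood at -1.30 and 0.49 and male-biased ones at -0.31 and -1.19. With the level of Arntl as a covariate the median of the 33 genes was -0.42 at 2 and -0.65 at 12 months, and with that of Xist -0.57 and -0.78. At 12 months the per-array median of the 33 genes was 0.49 to 0.55 in the 3 wild-type livers, and Dbp ranged from 0.34 to 6.51 among them. Of these, only animal 641 was scanned on the same day as the knockout livers. Against it alone the median was -0.86 with 29 of 33 members below 0. On the array of 641, 84.9% of probes were well above background, against 60.3% for 552 and 60.6% for 1110. It had the highest level of its group for 46.9% of members and 55.9% of features. The difference from 641 over all features was not computed.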

How the data were processed

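Per the file headers, the deposited array files hold Cy3 spot intensities from Agilent Feature Extraction 10.5.1.1, in which background and spatial trend were taken off each spot's signal, with no scaling between arrays. The deposited series table held log2 values: against each array's log2 processed signal above 8 its slope was 0.935 to 1.03, each of its 25 columns correlated most with its own array (r at least 0.965), and column medians were 6.57 to 6.58. The submitters' processing notes name limma, and its background correction and normalisation are not given in the sources used here. It served as an alternative.

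From the processed signal, unflagged spots of a probe were averaged, log2 was taken and each array's 75th percentile subtracted. RefSeq's gene table (GRCm38.p6) named 24375 of 41174 probes with 17016 symbols. No probe position is given, since the array files follow another build. Features well above background on at least 2 of 18 non-tumor arrays, or 3 of 14 paired arrays, were tested with limma 3.58.1 in R 4.3.3 (two-sided, Benjamini-Hochberg adjustment over all features, threshold 0.05). The first model fitted the 18 non-tumor arrays in 6 groups with 12 residual degrees of freedom. The second fitted 14 tumor and non-tumor arrays with the animal as a block. The pairing comes from the animal numbers in the labels, and 5 of 7 tumors correlated most with their own non-tumor sample. The tumors of 1347 (r = 0.14 with its own) and 793 (0.27) correlated most with non-tumor liver of animal 1287. A gene was read from the probe with the highest mean signal. The fits were tested on simulated data.

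The members and all lists were chosen with earlier results of these data known. All 33 members are given. Of the pathway lists, genes were named among the 3 with the smallest p in each of 3 comparisons. Some results of these lists are not reported here. Alternatives were other background corrections, normalisations, filters, probes and variance models, slide, scan day and Xist as terms, fits without the block and each array or animal left out. Added after the data were seen were Arntl as a covariate and centring on hepatocyte markers. The files hold no mean signal, so normexp (offset 50) used the median signal. Array number limits the precision.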

Additional observations from a re-analysis of the deposited data

Results flagged for a closer look

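Of 96 groups of 4 to 7 values tested for an end value far from the rest, 6 were marked, and chance marks about 1 in 20. In non-tumor knockout liver of 12 months, Fabp1 was at 7.75 in animal 702, and the nearest other animal was at 8.44. The other 5 are tumor minus non-tumor values of animal 1347, whose arrays were on separate slides and scanned on separate days. They were -1.20 for Acadl (nearest animal -0.33), -1.47 for Acadm (nearest -0.12), -1.06 for Hadh (nearest -0.14), -1.35 for Decr1 (nearest -0.26) and -2.32 for Pdk4 (nearest -0.33). The part of slide and scan day in these values was not tested.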

How the results depend on the processing

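Under the alternatives run, 27 to 31 members were below 0 at 2 months and 27 to 32 at 12 months. The median difference at 2 months (-0.62) was -0.28 with normexp and quantile normalisation and -0.32 with the deposited log2 table. It was -0.68 to -0.49 when single arrays were left out. At 12 months it was -0.79, with -0.90 to -0.70 when arrays were left out and -0.43 when arrays were centred on hepatocyte markers. The median over all features at 12 months was -0.09, and 0.06 with quantile normalisation.

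The number of members past the adjusted threshold at 12 months depended on the processing. It was 0 as reported, 4 with normexp and quantile normalisation (Acads, Eci1, Hadh and Hadha, with 1.71% of features past it) and 3 with the deposited table (Acads, Hadh and Hadha, 0.847%). It was 3 with the filter on every array (2.89%) and 3 with a trended, robust variance (1.11%), each time Acads, Eci1 and Hadha. With scan day as a covariate it was 1 (Hadha, 12% of features). With 1 array left out it was 0 to 8, with 8 without non-tumor liver of animal 638 (Acads, Cyp4a10, Eci1, Hadh, Hadha, Pex11a, Ppara and Slc25a20, 10.6% of features). The cause was not tested. At 8 against 2 months in knockout liver it was 1 with normexp and quantile normalisation (Acadm, 0.60). The share of all features past the threshold in that fit is not given here, so this call is not set against a background.

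The median of the change of the genotype difference with age was -0.47 with Arntl as a covariate and 0.18 with centring on hepatocyte markers. That centring gave medians of 0.48 at 8 and 0.31 at 12 months against 2 months in knockout liver. The former was -0.0041 to 0.38 when arrays were left out. Of member differences of knockout from wild-type or hemizygous liver with groups apart or an unadjusted p below 0.05, Creb3l3 turned to 0.10 against hemizygous liver with Arntl as a covariate and Acadl to 0.12 at 12 months with centring on hepatocyte markers. Other members also changed sign in at least 1 alternative: against wild-type liver at 2 months Fgf21 (-1.84 to 1.27), Cyp4a14 (-3.14 to 1.08), Ppargc1a, Ehhadh, Hadha, Acads, Etfb and Fabp1, and at 12 months Etfb, Etfdh, Fabp1 and Pdk4. Without the replicate block that pairs tumor with non-tumor liver, the tumor median was -0.05 and its age difference 0.36, with 0 members past the threshold. With 1 animal left out the tumor median was -0.17 to 0.10.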
